A study of Mus musculus with 44 samples.

Results

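Fear conditioning was compared with exposure to the tone alone in the ribosome-bound RNA of corticotropin-releasing hormone (Crh) neurons of the mouse central amygdala. All samples labelled FC (fear conditioned, n = 12) and TA (tone alone, n = 16) were taken, which were 28 of the 44 mice of the series. The remaining mice went through extinction (EXT) after conditioning. Each sample was an individual mouse of the Crh-TRAP strain, aged 10 to 16 weeks, that carried a Crh-Cre transgene and a Cre-dependent eGFP-L10a allele at Rosa26, and both groups carried both. In this cross, Cre made under Crh promoter sequences switches on a GFP-tagged ribosomal protein, and an antibody against GFP then pulls down ribosomes with the RNA bound to them. All mice were habituated to the chamber for 10 min on each of 2 days. FC mice then received 5 tones, each ending with a 0.65 mA foot shock, whereas TA mice heard the tones with the shock generator switched off. Both groups waited in a holding room and were sacrificed after 2 h, and RNA came from bilateral 1 mm punches centred on the amygdala. TA mice were thus handled, moved and exposed to a chamber and tone as FC mice were, so the groups differed by the shock, and no undisturbed mice were among them.

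Central amygdala neurons are mostly GABAergic, and many release neuropeptides such as CRH, somatostatin and dynorphin together with GABA. Pairing a tone with a shock makes the tone alone evoke freezing, and the central amygdala is a main output of the circuit that drives this response. Such learning depends on new protein synthesis, for which synaptic activity acts through kinases and transcription factors such as CREB and AP-1.

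The FC mice were 6 males and 6 females, and the TA mice were 10 males and 6 females. Batch 1 held 5 FC and 4 TA mice, batch 2 held 2 FC and 5 TA mice, and batch 5 held 5 FC and 7 TA mice. The sexes were spread unevenly, so that the 2 FC mice of batch 2 were males and 4 of the 5 FC mice of batch 1 were females. Values are log2 cpm (reads of a gene scaled to library size), on which a difference of 1 is a doubling, and 8203 genes were measured. The effective library size was 13431032 to 19257786 reads in FC mice and 14649837 to 20440351 in TA mice. Within batches FC libraries were 0.951 times the size of TA libraries (permutation test within batches, two-sided, 100000 resamples, p = 0.116). The lowest count of any gene was 29 reads, and the middle gene of a typical mouse had 952 reads. FC replicate 10, a male of batch 5, had both the smallest library and the lowest array weight (0.196), which measures how far a library departs from the fit. The labelled cell type was checked against its markers. Gad1 and Gad2, which make GABA, had means of 9.23 and 8.92 in FC mice and 9.39 and 9.12 in TA mice. Crh had a mean of 5.68 ± 0.85 (SD, n = 12) in FC and 5.81 ± 0.65 (SD, n = 16) in TA mice. Slc32a1, the vesicular GABA transporter, was not among the genes of the table. Slc17a7, a marker of glutamatergic neurons, had means of 6.08 in FC and 6.15 in TA mice. These levels show which RNA was present and do not measure enrichment of Crh neurons. RNA of other cells was present as well, since Mbp, a myelin protein of oligodendrocytes, had means of 10.62 and 10.40, and Ttr, the transthyretin of the choroid plexus, had means of 10.71 and 11.61 in FC and TA.

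No gene passed an FDR of 0.05 between FC and TA mice when they were compared within batches with sex as a further term (0 of 8203 genes, 0.0%). The smallest FDR was 0.0666, shared by Usp19, Lin52, Nxt2 and Utp6. An unadjusted p under 0.05 was found for 1379 genes, or 16.8% of all genes tested, of which 706 were higher (8.61%) and 673 were lower (8.2%) in FC mice. Of these, 592 were higher and 504 were lower in FC in each of the 3 batches, which is 79.5% of them, against 33.9% of all genes. The batches were part of the fit that gave these p-values, so this share is a description. The median difference over all genes was -0.0041. When FC replicate 10 was left out, 1072 genes had an unadjusted p under 0.05. Every difference given below is FC minus TA in log2 cpm from this fit, with its standard error, and none passed the FDR.

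**Figure D1:**
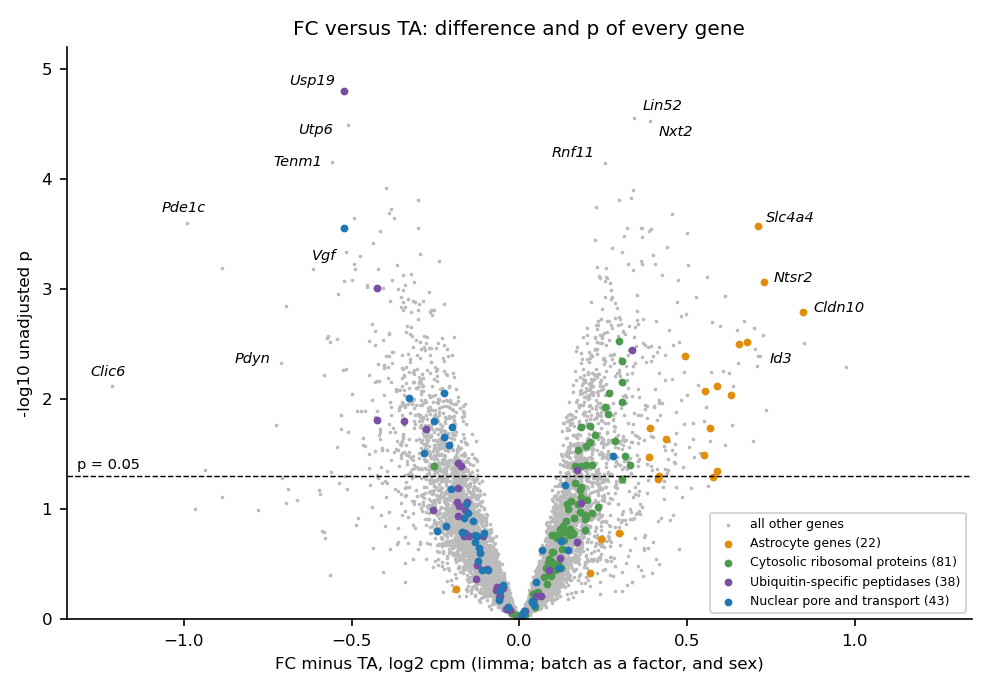
Difference between FC and TA mice (x axis, log2 cpm, positive when higher in FC) against the -log10 of the unadjusted p (y axis) for each of 8203 genes, with 4 gene lists coloured. Points reach similar heights on both sides (706 genes higher and 673 lower above the dashed line at p = 0.05), and the astrocyte genes lie to the right and apart from the ribosomal protein genes, which are many and close to 0.

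The genes with the smallest p that were higher in FC were led by Lin52 and Nxt2. Lin52 (chr12:84451422-84546145, GRCm38) is a subunit of the MuvB complex, which controls cell cycle genes. Its level was 5.24, 6.18 and 6.66 in FC mice (lowest, median and highest) and 4.97, 6.03 and 6.32 in TA mice, and the groups overlapped when batches were pooled. The difference was 0.34 ± 0.068 (p = 2.81e-05, FDR = 0.0666). All 12 FC mice lay above the median of the TA mice of their own batch, and FC and TA did not overlap in batches 1 and 2. In batch 1 the FC mice spanned 5.24 to 5.70 and the TA mice 4.97 to 5.06. Nxt2 (chrX:142226770-142239692), a cofactor of messenger RNA export, was 5.08, 6.75 and 7.29 in FC and 4.72, 6.48 and 6.87 in TA mice, a difference of 0.39 ± 0.078 (p = 2.99e-05, FDR = 0.0666). Its groups were apart only in batch 5. Of the 3 batches, Lin52 differed most in batch 1 (0.48) and Nxt2 in batch 5 (0.51).

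The other genes in this lead also had small differences in many mice. Signalling kinases were among them, with Araf, a Raf kinase of the MAP kinase pathway, higher by 0.23 and Map2k3, which activates p38, higher by 0.39. Rnf11, a RING-domain ubiquitin ligase, was higher by 0.26 ± 0.055, and all 12 FC mice exceeded the TA median of their batch. Ier3ip1 and Plekha3, which act in the early secretory pathway and at the trans-Golgi network, were higher by 0.34 and 0.33. The largest difference of these 15 genes was that of Slc4a4 (chr5:88886818-89239653), a sodium bicarbonate cotransporter that is abundant in astrocytes. It was 4.21, 4.78 and 5.41 in FC mice and 3.40, 4.02 and 4.95 in TA mice, and the difference was 0.71 ± 0.17 (p = 0.000269, FDR = 0.0904). The ranges overlapped in each batch, yet all 12 FC mice lay above the TA median of their batch. Cdk2ap1, a regulator of the cell cycle kinase Cdk2, was higher by 0.45, and Tmem47, a membrane protein of cell junctions, by 0.39. Gcsh, a protein of glycine cleavage, was higher by 0.32 and Fopnl, a centrosomal protein, by 0.37. B230217C12Rik, Gm14326 and the zinc finger gene Zfp825 completed the 15 genes with 0.30, 0.36 and 0.50.

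Usp19 and Utp6 led the genes that were lower in FC. Usp19 (chr9:108490602-108502337), a deubiquitinating enzyme, had the smallest p of all genes. Its level was 4.46, 5.24 and 5.91 in FC mice and 5.31, 5.62 and 6.16 in TA mice, and the difference was -0.52 ± 0.10 (p = 1.59e-05, FDR = 0.0666). All 12 FC mice lay below the TA median of their batch, and the groups did not overlap in batches 2 and 5. Utp6 (chr11:79932321-79962390), which processes the precursor of the small ribosomal subunit RNA, was 3.83, 4.40 and 5.13 in FC and 4.51, 5.01 and 5.32 in TA mice, with a difference of -0.51 ± 0.10 (p = 3.25e-05, FDR = 0.0666). It too was below the TA median of the batch in 12 of 12 FC mice.

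Translation, synaptic signalling and trafficking genes followed. Eif4g1 and Eif4g3, the scaffolds of the cap-binding complex, were lower by 0.49 and 0.30, with the smallest differences in batch 2 (-0.08 and -0.09). Aars, the alanyl-tRNA synthetase, was lower by 0.37. Pde1c (chr6:56069804-56569103), a calmodulin-dependent phosphodiesterase that breaks down cyclic nucleotides, had the largest difference of this set, -0.99 ± 0.24 (p = 0.000249, FDR = 0.0904). Its levels were 2.85, 4.19 and 5.35 in FC mice and 3.14, 5.14 and 6.11 in TA mice, which overlapped in each batch. Akap5, which anchors protein kinase A at the postsynaptic membrane, was lower by 0.52, and the teneurin Tenm1, a synaptic adhesion protein, by 0.56. Cse1l, the nuclear export receptor of importin alpha, was lower by 0.52, and Arhgap39, a GTPase-activating protein, by 0.40. Golga3, a golgin, was lower by 0.30, Rbm6, an RNA-binding protein of splicing, by 0.39, and Wwc2, a Hippo pathway protein, by 0.42. Gpatch2l and Calcoco1 were lower by 0.38 and 0.44.

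**Figure D2:**
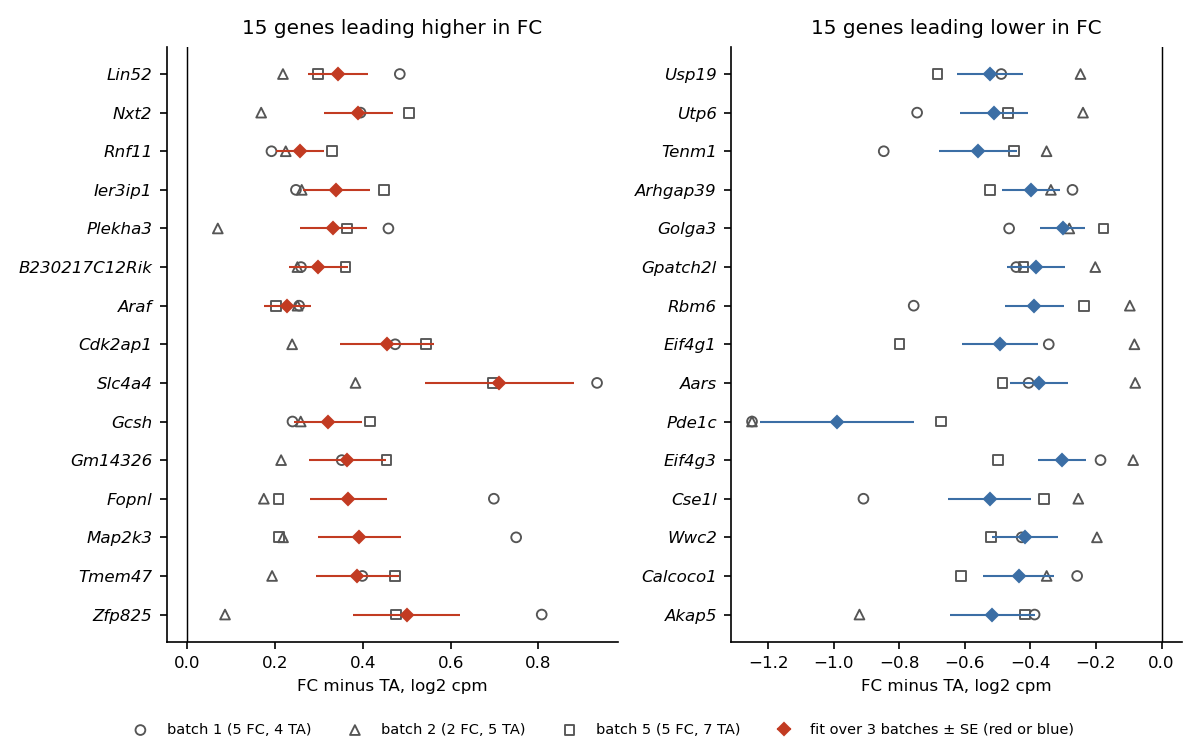
FC minus TA in log2 cpm (x axis) for the 15 genes that lead each direction by p. Open symbols are the differences of means in batches 1, 2 and 5, and filled diamonds the fit over the 3 batches with its standard error, and the symbols of batch 2, which had 2 FC mice, often lie nearest 0.

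Astrocyte genes had the highest median of the lists with 8 or more measured members. Of 22 measured members, 21 were higher in FC and 15 had an unadjusted p under 0.05, all of them higher, against 8.61% of all genes. The median was 0.55, against -0.0041 for all genes. It was 0.67, 0.38 and 0.46 in batches 1, 2 and 5, and 0.56 in males and 0.61 in females. Ntsr2, a neurotensin receptor of astrocytes, was 6.21, 7.04 and 7.51 in FC mice and 5.40, 6.32 and 7.50 in TA mice, a difference of 0.73 ± 0.19 (p = 0.000858, FDR = 0.103). All 12 FC mice exceeded the TA median of their batch. Cldn10, a claudin, was higher by 0.85, Acsbg1, an acyl-CoA synthetase, by 0.68, and Slc1a2, the main glutamate transporter of astrocytes, by 0.59. The defining markers were less distinct, since the water channel Aqp4 was higher by 0.55 (p = 0.0321) and the gap junction protein Gja1 by 0.42 (p = 0.0501). The summed level of the 22 genes was 1446 to 3202 cpm in FC mice and 970.1 to 3832 cpm in TA mice. The highest single mouse was thus a TA mouse. In pulldowns from punches such as these, more cells of a type, more RNA per cell and more of their RNA carried over cannot be told apart. Without TA replicate 6, which had the lowest sum, 11 members had a p under 0.05 and the median was 0.45.

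The Id genes, which encode inhibitors of helix-loop-helix transcription factors and are expressed by glia as well as by neurons, were higher in FC with all 3 members at an unadjusted p under 0.05. Id3 was 5.05, 6.02 and 6.50 in FC mice and 3.32, 5.32 and 7.12 in TA mice, a difference of 0.72 ± 0.23 (p = 0.0041, FDR = 0.137). The TA mice spread around the FC mice on both sides, although 12 of 12 FC mice lay above the TA median of their batch. Id2 was higher by 0.60 ± 0.18 and Id4 by 0.39 ± 0.13. The difference of Id3 was 1.26 in batch 1 and 0.32 and 0.47 in batches 2 and 5. The astrocyte genes moved with these genes. When the mean of the astrocyte list was added to the fit, a choice made after the values were seen, Id3 differed by 0.18 (p = 0.294), and 340 genes were higher and 365 lower at an unadjusted p under 0.05. Lin52 and Usp19 then differed by 0.26 (p = 0.00157) and -0.52 (p = 0.000141). Other leading genes shrank more, with Pde1c, Akap5 and Cdk2ap1 at -0.46, -0.27 and 0.23 (p = 0.0184, 0.0312 and 0.0159). Eif4g1 did not shrink (-0.55, p = 0.000312). The mean of the list was itself higher in FC, so such a fit cannot separate it from the group. The part of glial RNA in the differences was not tested.

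Lists of other cells moved less evenly. Of 19 oligodendrocyte genes, 17 were higher in FC with a median of 0.24, but only Olig1, a transcription factor of the lineage, had a p under 0.05 (0.39, p = 0.0408). The median of these genes was -0.029 in males and 0.58 in females, and 0.0046, 0.051 and 0.49 in batches 1, 2 and 5. Their summed level was 2945 to 24250 cpm in FC and 1831 to 11690 cpm in TA mice. The log2 of that sum differed by -0.034 with batch and sex in the fit. Without FC replicate 2, the mouse with the highest sum, the median of the genes was 0.11. All 6 choroid plexus and ependymal genes were lower in FC, with a median of -0.82. Their summed level ranged from 755.0 to 19670 cpm in FC and from 241.1 to 28160 cpm in TA mice. Clic6, a chloride channel protein of that epithelium, was lower by 1.22 (p = 0.00764) and Ttr by 0.56 ± 0.66 (p = 0.401). The median of the 6 genes was -1.94 in males and 0.44 in females. The interaction with sex for Ttr was -3.12 ± 1.20 (males minus females, p = 0.0146, FDR = 0.417), and no gene passed the FDR for this interaction. Only 2 microglial and 5 vascular genes were measured, none with a p under 0.05, and Cx3cr1, P2ry12, Cldn5 and Pecam1 were not among the genes of the table.

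**Figure D3:**
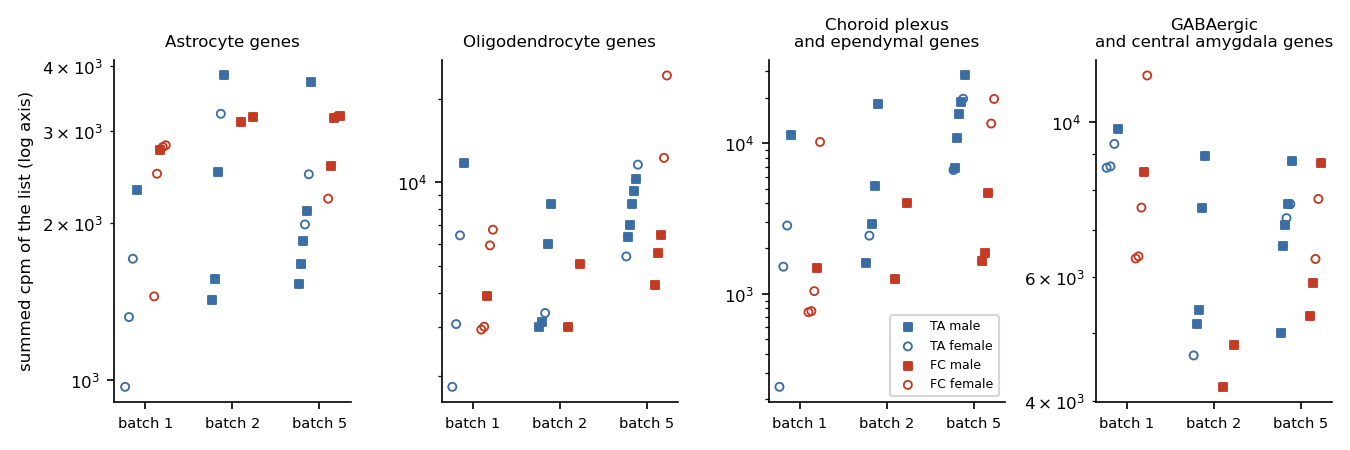
Summed cpm of 4 marker lists (y axis, log scale) in each mouse, by batch and group, with squares for males and circles for females. Most FC mice lie in the upper part of the astrocyte panel, with 2 TA mice of batch 2 and 1 of batch 5 above each FC mouse of their batch, whereas the choroid plexus panel spans 241.1 to 28160 cpm with both groups spread along it.

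Genes of the ribosome and of mitochondria were mostly slightly higher in FC. Of 81 cytosolic ribosomal proteins, 77 were higher, and 20 of these had an unadjusted p under 0.05, against 8.61% of all genes, while 1 member, Rpl10a, was lower at that p. The median was 0.15, with 0.17, 0.032 and 0.22 in batches 1, 2 and 5. The counts rested on single mice, since 9 members were higher at that p without FC replicate 10 and 31 without FC replicate 12. Rpl10a is the gene whose tagged copy was used to isolate the ribosomes. Rpl14 was higher by 0.30, and 11 of 12 FC mice lay above the TA median of the batch. The median of the list was 0.074 without FC replicate 10. With log2 library size in the fit it was 0.073 and 6 members had a p under 0.05. With the astrocyte list in the fit it was 0.091 and 2 members were higher at that p. Of 76 mitochondrial ribosomal proteins, 64 were higher with a median of 0.073. The 6 of them at a p under 0.05 were 7.90% of the list, near the 8.61% of all genes, and Mrpl48 and Mrpl18 were higher by 0.20 and 0.19. Among 78 subunits of oxidative phosphorylation 61 were higher with a median of 0.062, which was 0.028 without FC replicate 3. At a p under 0.05, 7 were higher, again near the 8.61% of all genes, and 2 were lower (4 without FC replicate 10). Ndufb9, of complex I, was higher by 0.23, and Atp5a1, of the ATP synthase, was lower by 0.27. The median of these subunits was -0.12 in males and 0.26 in females. All 8 transcripts of the mitochondrial genome were higher with a median of 0.34, none with a p under 0.05, and their median was -0.15 in batch 1 and 0.73 in batch 5. Without FC replicate 5 it was 0.17 and without FC replicate 3 it was 0.54. The direction turned with other cells in the fit, since the median was -0.375 with none of 8 higher with the astrocyte list and -0.059 with 3 of 8 higher with the choroid plexus list.

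Direction went with transcript length. The 685 genes higher in FC at an unadjusted p under 0.05 that have an annotated length had a median longest transcript of 2461 bases. That of the 656 lower genes was 4216 bases, and that of all 8023 genes with a length was 3387 bases. When genes were split into 3 equal sets by length, in the shortest set (up to 2627 bases), 13.9% were higher and 2.66% lower at that p. The longest set, from 4252 bases, had 4.64% higher and 12.0% lower. Ribosomal protein transcripts are short. With log2 library size in the fit, 558 genes were higher and 520 lower at that p. The median differences of the shortest and longest sets were then 0.044 and -0.041, against 0.058 and -0.054 without it. The part of length in these differences was not tested.

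The lower lists belonged largely to neurons and to the handling of RNA and protein. GABAergic and central amygdala genes had the lowest median of the lists with 8 or more members, -0.14, with 21 of 29 lower in FC and 4 of them at a p under 0.05, against 8.2% of all genes. Those were Pdyn, Dlx5, a homeobox gene of GABAergic neurons, Gad2 and Gad1, which were lower by 0.71, 0.38, 0.21 and 0.19. The median of the list was -0.052, -0.47 and -0.085 in batches 1, 2 and 5, and batch 2 had 2 FC mice. In these batches 11, 4 and 13 of the 29 genes were higher in FC. With the astrocyte list in the fit the median was -0.051, no member was lower at that p and 1 was higher, and the p of Pdyn, Dlx5, Gad2 and Gad1 was 0.18, 0.37, 0.29 and 0.30. Without FC replicate 2 there were 2 such members, and without TA replicate 13 there were 7. The summed level of the list was 4187 to 11640 cpm in FC and 4642 to 9770 cpm in TA mice, so the FC range covered that of the TA mice. Of 39 neurotransmitter receptors, 29 were lower with a median of -0.092 (-0.056 without TA replicate 2). At that p 4 were lower (7 without FC replicate 9), which is 10.26% of the list and near the 8.2% of all genes. Grin1, the obligatory NMDA receptor subunit, was 3.51, 4.38 and 6.06 in FC and 3.92, 4.70 and 6.23 in TA mice, a difference of -0.62 ± 0.16 (p = 0.000656, FDR = 0.102). It lay below the TA median of the batch in 11 of 12 FC mice. Grm7, a presynaptic metabotropic glutamate receptor, was lower by 0.57, Gria3, an AMPA receptor subunit, by 0.29, and Gabra5, a GABA-A receptor subunit, by 0.19.

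Among postsynaptic scaffolds and potassium channels, as among the receptors, no member was higher at an unadjusted p under 0.05. The same held for the GABAergic, glutamatergic and CREB1 lists, among others. Without TA replicate 6, 2 channel genes were higher at that p, and without FC replicate 8, 1 receptor gene was higher at it. Of 30 scaffold genes 8 were lower at that p (26.67%, against 8.2% of all genes). Among them were Dlg3, which encodes SAP102 and binds NMDA receptors (-0.48), Baiap2 (-0.35), Cnksr2 (-0.30) and Pick1, which binds AMPA receptor subunits (-0.26). Of 38 potassium channel genes 8 were lower at that p (21.05%, against 8.2% of all genes), with Kcna5 at -0.50 and Kcnf1 at -0.41. Without TA replicate 11, 5 were lower at that p. These lists had medians of -0.072 and -0.053, and that of the channels was -0.026 without FC replicate 8 and -0.098 without FC replicate 12. With the astrocyte list in the fit, 5 scaffold genes and 2 channel genes were lower at that p. Camk2b, a subunit of the CaMKII kinase, was lower by 0.29 and Camk2n1, an inhibitor of CaMKII, was higher by 0.27 (p = 0.00707 and 0.0475).

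Protein and RNA handling genes split by family. For comparison with the counts below, 8.61% of all genes were higher and 8.2% lower at an unadjusted p under 0.05. The list of ubiquitin-specific peptidases, which remove ubiquitin, was matched by symbol and also took in Usp6nl, which is not one. Of its 38 members, 28 were lower, with a median of -0.12, and 7 of these had an unadjusted p under 0.05. Besides Usp19, Usp33 and Usp40 were both lower by 0.42, whereas Usp34 was higher by 0.34. The ubiquitin-conjugating enzymes went the other way, with 21 of 28 higher, 9 of them at that p and none lower at it, although their median was only 0.051. Ube2w was higher by 0.28, Ube2q2 by 0.20 and Ube2d1 by 0.18. The count of conjugating enzymes higher at that p was 5 without FC replicate 4. The list of aminoacyl-tRNA synthetases, which charge transfer RNAs, also held the scaffold proteins Aimp1, Aimp2 and Eef1e1. Of its 34 members, 27 were lower with a median of -0.10, and 6 of these had a p under 0.05, among them Aars, Wars (-0.29) and Vars (-0.31). This count was 3 and the median -0.066 without FC replicate 10. Nuclear pore and transport genes were lower in 30 of 43 cases with a median of -0.12. Their 8 members lower at that p included Cse1l, Rcc1, which loads Ran with GTP (-0.33), and Nup50 (-0.22), and 5 were lower at that p without FC replicate 10. Rab GTPases, which direct vesicles, had 8 of 42 members higher and none lower at that p, with Rab28 at 0.22 and Rab33b at 0.24. Autophagy and apoptosis genes were split, with 21 of 39 higher and 18 lower, a median of 0.020 (-0.0031 without FC replicate 3), and 6 higher and 1 lower at that p. Among the 6 were Xiap, an inhibitor of caspases, at 0.40 and Bcl2l2, a relative of Bcl2, at 0.38. With the astrocyte list in the fit, the members at that p fell in number to 4 higher conjugating enzymes, 3 lower nuclear pore genes and 4 higher Rab genes.

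**Figure D4:**
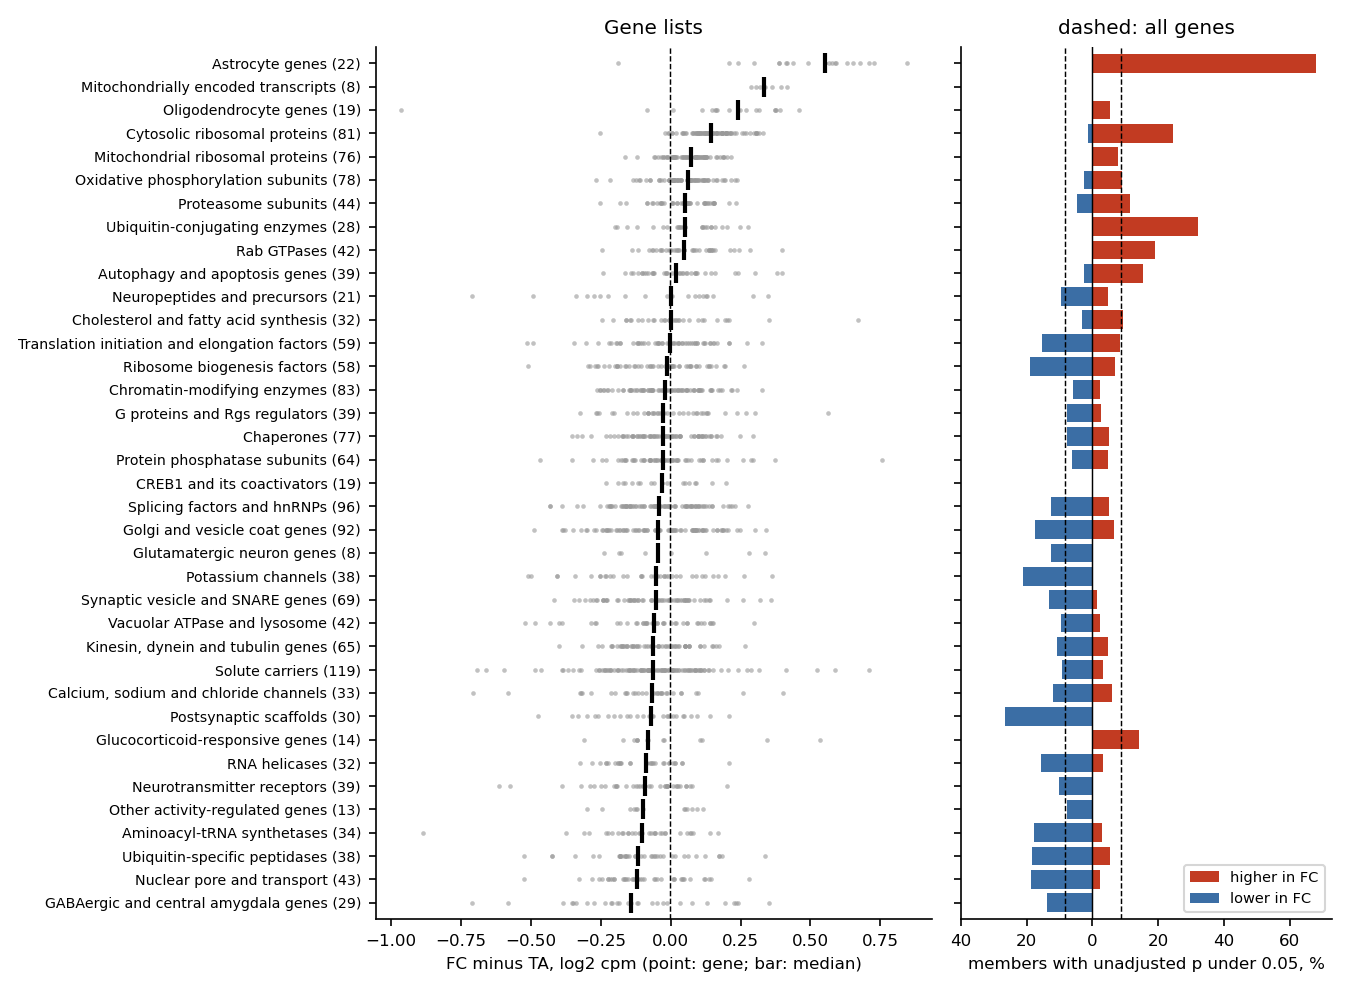
Left, FC minus TA in log2 cpm of each member (points) and the median (bars) of gene lists with 8 or more measured members. Right, the percentage of members with an unadjusted p under 0.05, higher (red) or lower (blue) in FC, with dashed lines at the 8.61% and 8.2% of all genes, where astrocyte genes reach furthest to the right.

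Neuropeptides and the proteins of their granules did not move together. Of 21 measured members 11 were higher and 10 lower, with a median of 0.0022. An unadjusted p under 0.05 was found for 3 (14.29%, against 16.8% of all genes), of which 2 were lower (5 lower without FC replicate 10). The median was -0.12 without that mouse, with 8 members higher, and also -0.12 with log2 library size in the fit. Vgf, a granule protein that is cut into several peptides and is induced by activity, was 4.86, 5.69 and 7.13 in FC mice and 4.87, 5.93 and 7.31 in TA mice. The difference was -0.49 ± 0.13 (p = 0.000598, FDR = 0.102), and 12 of 12 FC mice lay below the TA median of their batch, with differences of -0.59, -0.33 and -0.50 in batches 1, 2 and 5. Pdyn, the precursor of dynorphin, was 6.48, 8.09 and 9.62 in FC and 7.40, 8.62 and 9.54 in TA mice, a difference of -0.71 ± 0.23 (p = 0.00473, FDR = 0.144). A single FC mouse of batch 1 was above the TA mice of that batch, and 11 of 12 FC mice lay below the TA median of their batch. Cpe, the carboxypeptidase that trims peptide precursors, was higher by 0.29 ± 0.13 (p = 0.0276). Crh itself was 4.08, 5.35 and 6.90 in FC mice and 4.80, 5.73 and 7.17 in TA mice, and the ranges overlapped in each batch. Its difference was -0.34 ± 0.17, with a 95% interval of -0.69 to 0.0098 (p = 0.0564, FDR = 0.309), and it was -0.01 in batch 1 against -0.47 and -0.51 in batches 2 and 5. Sst, Penk, Scg2 and Chga were at -0.30, -0.27, -0.25 and -0.22, and Cartpt at 0.35, each with a p above 0.05, and Npy, Tac1, Cck and Nts lay between -0.01 and 0.15.

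**Figure D5:**
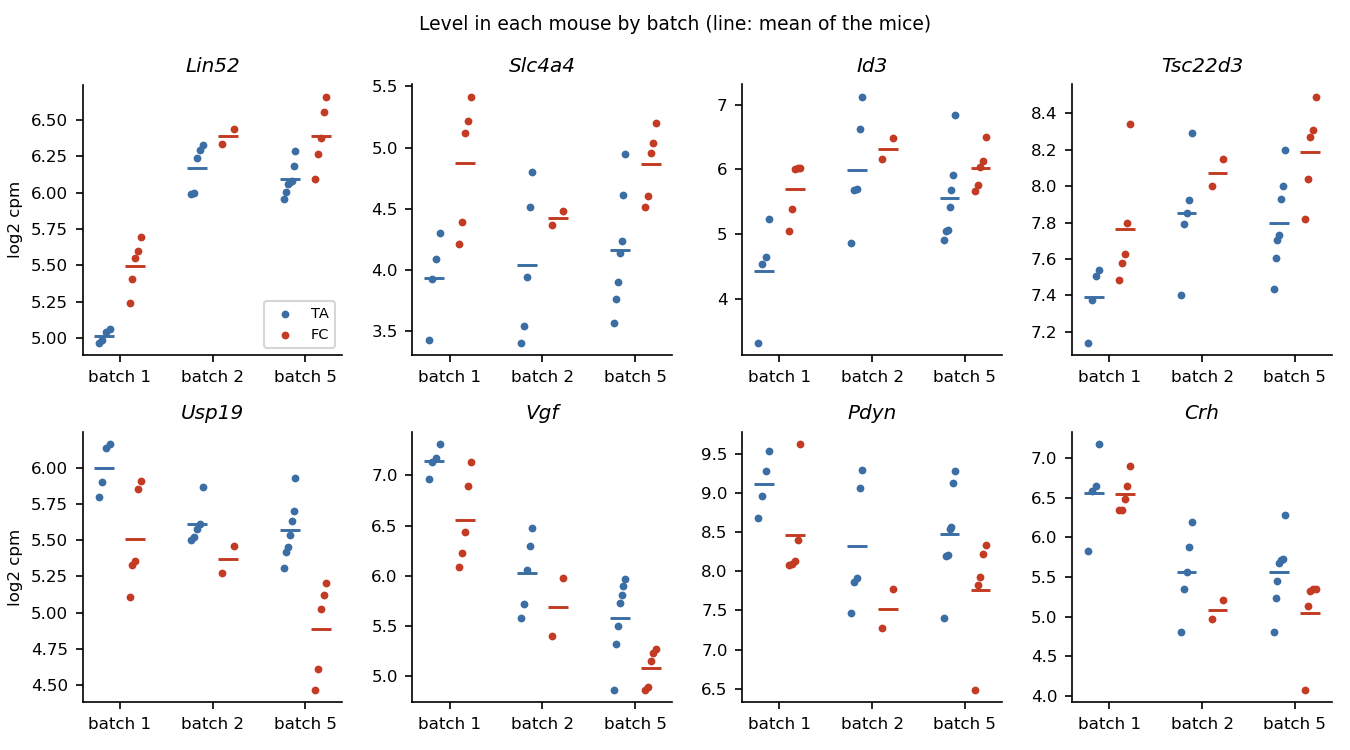
Level of 8 genes in each mouse (y axis, log2 cpm), by batch, in blue for TA and red for FC mice, with the mean of each as a line. Lin52 and Usp19 lie apart in several batches, whereas Crh overlaps in each batch and has nearly the same mean in batch 1 (a difference of -0.01).

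Genes of the activity pathway in the table were 4 AP-1 genes, 13 other activity-regulated genes and 19 genes of CREB1, its relatives, coactivators and kinases. Their RNA was measured at a single time, 2 h, and the activity of the encoded proteins was not measured. None of the AP-1 genes had a p under 0.05. Fos, the classical marker of recent activity, was 3.67, 4.67 and 5.14 in FC mice and 3.76, 4.73 and 5.50 in TA mice, a difference of -0.13 ± 0.15 with a 95% interval of -0.43 to 0.18. The FC mice lay evenly on both sides of the TA medians of their batches, 6 above and 6 below. Junb, Jun and Jund were at -0.13, -0.13 and 0.06. By differences of means, all 4 AP-1 genes were higher in FC in batch 1, 1 in batch 2 and 0 in batch 5. With the astrocyte list in the fit, 1 of them, Jun, was lower at a p under 0.05 (-0.43, p = 0.00464). Of the other activity-regulated genes, which had a median of -0.098 (-0.030 without FC replicate 9), only Dusp6, a phosphatase of the kinase ERK, had a p under 0.05 (-0.30, p = 0.00699). No gene of the CREB1 list did, and Creb1 was at -0.07 ± 0.092 with a 95% interval of -0.26 to 0.12.

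CREB binds the cAMP response element, the palindrome TGACGTCA, which reads the same on both strands. It was searched in RefSeq promoters (GRCm38.p6), from 250 bases before to 50 bases after the start of the gene, which were matched by symbol for 6393 of the 8203 measured genes. It was present in 4.07% of these genes, in 3.11% of those higher and 3.76% of those lower in FC at an unadjusted p under 0.05, and in none of the 23 leading genes with a promoter. Of the 21 measured neuropeptide genes, 16 had a promoter, and 4 of these held it. The others were not searched or did not hold the exact palindrome within the searched bases. The windows of the 4 are shown because they place the element in measured peptide genes. The element is in capitals, with its first base at -48, -112, -68 and -72 from the start of Sst, Cartpt, Scg2 and Chgb. The cells that this RNA came from were not resolved.
Sst (chr16:23890859-23890918, minus strand): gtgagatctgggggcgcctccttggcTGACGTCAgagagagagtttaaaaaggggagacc
Cartpt (chr13:99900762-99900821, minus strand): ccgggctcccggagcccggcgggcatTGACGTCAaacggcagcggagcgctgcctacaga
Scg2 (chr1:79440061-79440120, minus strand): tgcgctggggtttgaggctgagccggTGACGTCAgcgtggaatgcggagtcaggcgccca
Chgb (chr2:132781544-132781603, plus strand): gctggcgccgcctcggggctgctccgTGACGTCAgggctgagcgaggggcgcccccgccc
These genes went in different directions, with Sst at -0.30 ± 0.17, Cartpt at 0.35 ± 0.21, Scg2 at -0.25 ± 0.16 and Chgb at 0.0037 ± 0.27, and none had a p under 0.05.

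The glucocorticoid list was also split. It held genes that respond to the corticosterone released under stress, and also the receptors Nr3c1 and Nr3c2 and the chaperones Hsp90aa1, Hsp90ab1 and Fkbp4. Of 14 measured, 2 were higher in FC at an unadjusted p under 0.05 and none was lower at it, while 10 of 14 were below 0. The 2 were 14.29% of the list, against 8.61% of all genes higher and 16.8% in either direction. Tsc22d3, which encodes GILZ, was 7.49, 8.02 and 8.49 in FC and 7.14, 7.72 and 8.29 in TA mice, a difference of 0.34 ± 0.10 (p = 0.00222, FDR = 0.130), with 12 of 12 FC mice above the TA median of their batch. Mt1, a metallothionein, was higher by 0.53 ± 0.18 (p = 0.00743). Both were smaller with the astrocyte list in the fit (0.205 and 0.10), when no member was higher at that p. Fkbp5 and Sgk1, well known targets of the receptor in brain, were at -0.17 (p = 0.133) and -0.31 (p = 0.148).

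The 10 EXT mice of the same batches give a side-by-side view against the same TA mice, which both differences share. In a fit of the 3 groups with ordinary standard errors, Slc4a4 was at 0.26 ± 0.21 in EXT and 0.70 ± 0.20 in FC, and Id3 was at 0.29 ± 0.27 in EXT. Usp19 was at -0.64 ± 0.17 in EXT. Fos, which was at -0.14 in FC in this fit, was at -0.89 ± 0.15 in EXT, and Pdyn was at -0.21 ± 0.26 in EXT.

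The 3 batches and both sexes were also compared for the difference itself. No gene passed the FDR for an interaction of group with sex (0 genes, 789 at an unadjusted p under 0.05) or with batch (0 genes, 585 at an unadjusted p under 0.05). Comparisons by sex rest on the labels. The 15 leading genes in each direction kept their sign in males alone and in females alone. They had been picked from these same mice by p and by sign in the 3 batches, so this is a description. Such agreement was common, since 1366 of the 1379 genes with p below 0.05 kept their direction in males and 1358 in females. Of the leading genes, Zfp825 ranged from 0.39 in males to 0.65 in females and Calcoco1 from -0.61 to -0.23. These differences had an interaction p of 0.313 and 0.0634.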

How the data were processed

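The authors trimmed reads with Trimmomatic 0.36, mapped them to GRCm38 with STAR, counted genes, passed the counts through edgeR, dropped genes that fell under a cpm limit in any sample, and removed outlying mice. The deposited log2 cpm values have the form that limma voom gives (reads plus 0.5, over an effective library size). Genes under that limit were not analysed here. Whole reads were solved back for 360932 of 360932 values (tolerance 0.1 reads). Libraries were made with an amplifying kit, and intervals cover spread between mice.

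The log2 values of FC and TA mice were fitted by limma 3.58.1 (lmFit and eBayes, R 4.3.3), with group, sex and batch as factors, two-sided, and Benjamini-Hochberg adjustment over 8203 genes. The table has 1 repeated symbol. The fit was tested on simulated data of this design with 8203 genes, of which 200 were changed. The FDR was passed by 13 of 50 genes changed by 0.25, 38 of 50 by 0.5, 47 of 50 by 1 and 50 of 50 by 2 (log2). Such shares depend on how many genes change and by how much, which is not known for these mice. They therefore do not tell how many real differences of these sizes would pass. Named were the 15 genes of smallest p in each direction with the same sign in 3 batches, up to 4 members at p under 0.05 of each gene list, and members of the AP-1, CREB1, neuropeptide and glucocorticoid lists. The 6 lists of highest and the 6 of lowest median among those with 8 or more members are described, and a few more were chosen after their values were seen. One gene and one list are not reported here. The groups, genes and lists were chosen with earlier results of these data known. Positions and transcript lengths came from GENCODE release 21 of the mouse. Alternatives were other codings of batch and sex, all 44 samples, median centring, quantile normalization, a minimum mean of 5, trended and robust eBayes, array weights, voom weights, library size as a covariate, and leaving out each batch, sex or mouse. The means of the astrocyte and choroid plexus lists as covariates were added after the data were seen. Python 3.11.15, numpy 2.4.6 and pandas 2.3.3 were also used.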

Additional observations from a re-analysis of the deposited data

How the results depend on the processing

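The count of genes passing the FDR was 0 in the fit reported and under each alternative fit but one. With a minimum mean log2 value of 5 it was 3 (Nxt2, Usp19 and Lin52), and when 1 mouse was left out it ranged from 0 to 3, with 3 without FC replicate 5, 1 without FC replicate 6 and 2 without FC replicate 8. The 706 higher genes at an unadjusted p under 0.05 were 346 with batch as a number, 241 without a batch term, 435 without batch 5 and 340 with the astrocyte list as a covariate. The 673 lower genes were 311 without a batch term, 441 in a fit of all 44 samples, 329 without batch 5 and 365 with the astrocyte list. With batch as a number the 507 lower genes stayed within 1.5 times. Leaving out 1 mouse gave 561 to 797 higher and 511 to 808 lower genes. For 95 genes named here, 4345 values under the alternatives held 4334 of the same sign. The others were Aqp4 (-0.046), Gja1 (-0.11) and Jund (-0.0048) with the astrocyte list as a covariate, which holds the first and second of these, Ttr with the choroid plexus list, which holds it (0.58), without batch 5 (0.021) and in females (1.33), Fkbp5 in males (0.021), Fos with library size as a covariate (0.0020) and in females (0.093), and Creb1 without batch 1 (0.098) and in males (0.047). The cause was not tested. No paired analysis was possible because the replicate numbers follow the accession order and mark no shared litter or day. With 2 FC mice in batch 2 that batch adds little precision, and counts at an unadjusted p include chance calls.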
